A study of Mus musculus with 2 samples.

Results

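Lef1 occupancy at 10 genes of regulatory T cells was examined in conventional CD4+ T cells, which are sorted so as to leave out CD25-positive cells. The genes were Foxp3, Ctla4, Gpr83, Ikzf2, Ikzf4, Tigit, Tnfrsf4, Tnfrsf18, Nt5e and Lrrc32. A peak belonged to a gene when any of its bases lay inside the gene body or within 50 kb of it on the mm10 genome. By this rule 4 of the 2052 peaks in the deposited list belonged to the 10 genes, at Ctla4, Gpr83 and Ikzf4.

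Lef1-bound chromatin was recovered with a monoclonal antibody (clone C18A7) and sequenced (ChIP-seq), giving 1 library of each kind. The first came from wild-type C57BL/6 mice aged 8 to 10 weeks, whose conventional CD4+ cells (GFP-negative, CD25-negative, TCRb-positive) were sorted from the spleen. The second came from Lef1-deficient CD4+ T cells of CD4-Cre+ Lef1 fl/fl mice, also C57BL/6, in which the CD4-driven Cre recombinase deletes the floxed Lef1 gene in developing T cells. The labels give TCRb-positive, CD4-positive cells with no CD25 gate for these mice and state no age for them. For both samples the tissue label reads naive CD4 T cells. The Lef1-deficient library served only as the control of the peak calls, and no values of that library alone were used here. By the gates given, the control cells were not sorted to leave out CD25-positive cells, as the wild-type cells were. Any effect of this on the peak calls, or on the lack of one, was not tested. With 1 library a group no difference could be tested. A peak list carries no expression values, so neither the labelled cell type nor the absence of regulatory T cells could be checked from markers. Binding in a small subset of the cells and weak binding in all of them cannot be told apart.

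Lef1 belongs to the TCF/LEF transcription factors, which recognise short sites with a CTTTG core; it is abundant in naive T cells. Regulatory T cells restrain immune responses and depend on the transcription factor Foxp3, which acts with other factors, among them the Ikaros family members Helios and Eos. They carry inhibitory receptors such as CTLA-4 and TIGIT, receptors of the tumour necrosis factor family, and the surface enzyme CD73. Conventional CD4 T cells express several of these genes at low levels at rest and some of them after activation.

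The peak at Ctla4 was the only one of the 4 peaks that reached a member's body, and it lay across the annotated gene start. CTLA-4 is an inhibitory receptor that competes with CD28 for CD80 and CD86. The peak spanned chromosome 1, 60908965 to 60909027 (63 bp), with a gene start at 60909025. Of its bases 60 lay before the start and 3 from the start onwards. The bases before the gene start are shown, with those under the peak in capitals, because no other member promoter window searched had a peak in it (plus strand, chr1:60908775-60909024, RefSeq, GRCm38.p6).
Ctla4 promoter: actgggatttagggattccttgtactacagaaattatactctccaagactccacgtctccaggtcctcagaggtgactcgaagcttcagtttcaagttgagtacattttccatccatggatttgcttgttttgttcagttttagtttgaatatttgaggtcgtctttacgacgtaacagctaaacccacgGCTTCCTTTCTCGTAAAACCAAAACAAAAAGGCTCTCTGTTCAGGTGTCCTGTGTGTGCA

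The core was searched on both strands in 4 forms that differ only in their last 2 bases. The forms were CTTTGAA, its relative CTTTGAT, the form CTTTGTA and the form CTTTGTT. None was found in the 63 bases of the peak or in the 250 bases before the gene start. At the same place relative to the start, 2.37% of 21263 RefSeq promoter windows of protein-coding genes held a core. The nearest match was CTTTGAT on the strand opposite to the gene, at positions 26 to 32 counted from the first base of the gene as 0. It began after a gap of 23 bases from the end of the peak. It is shown with its flanks, read on the gene's strand with the core in capitals, because it is the only core in the Ctla4 window (chr1:60909040-60909069).
Ctla4 core: acgtaccttggATCAAAGctgtctatataa

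Promoter windows, 250 bases before to 50 bases after a gene start, were given for 7 of the 10 genes, with 8 windows among them. Ikzf2, Ikzf4 and Lrrc32 had no entry. A core was found in 2 of the 8 windows, 1 of Ctla4 and 1 of Foxp3, against 14.7% of the 21263 windows of protein-coding genes. That of Foxp3 was CTTTGTT on the opposite strand, at positions -175 to -169 in one of its 2 windows. Of the 2 genes with a core, Ctla4 had a peak in its window and Foxp3 had none. Over all protein-coding genes with a promoter window, 1.37% had a peak in it, and among the 7 members only Ctla4 did. Of the 127 listed peaks that lay wholly inside a promoter window, 13 held a core (10.2%, exact Clopper-Pearson 95% interval 5.56 to 16.9%). Of those scoring above the median of the list, 8 of 47 held one (17%, interval 7.65 to 30.8%), against 5 of 80 at or below it (6.25%, 2.06 to 14%). The median width of the 127 peaks was 87 bp, so their share cannot be set against the 14.7% of whole windows of 300 bases. A share for stretches of the same widths was not computed. Like that of Ctla4, most listed peaks inside promoter windows held none of the 4 forms.

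Of the 10 genes 3 had a peak (30%, exact Clopper-Pearson 95% interval 6.67 to 65.2%), against 15.5% of 21887 protein-coding genes by the same rule. The interval includes that background, so the share among the members cannot be told from it. Within 10 kb, or within 25 kb, 2 of the 10 genes had a peak, against 7.33% and 10.5% of protein-coding genes, and within 100 kb 3 had one, against 24.6%. The windows of the 10 genes together covered 1.24 Mb and held 3.23 peaks per Mb (exact Poisson 95% interval 0.879 to 8.26). Those of all protein-coding genes held 0.989 peaks per Mb, which also lies inside the members' interval. The intervals cover counting error only, and neighbouring peaks and genes are not independent.

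All 4 peaks had scores near the bottom of the scale. The scores, deposited as −log10 p from peak calling, ran from 4.01 to 4.83, in a list that runs from 4.01 to 38.17 with a median of 4.40. The peak at Ctla4 scored 4.20, and 11.1% of the list scored lower. The peak nearest to Gpr83 scored 4.40, a value it shared with 828 peaks in all, or 40.4% of the list. The second peak of Gpr83 scored 4.83, above 71.9% of the list. The peak of Ikzf4 scored 4.01, and no listed peak scored lower. Above the median score only Gpr83 had a peak, against 5.84% of protein-coding genes. At a score of at least 5 no member had a peak, against 4.42% of protein-coding genes. Widths ran from 63 to 119 bp, with a median of 79 bp over the whole list.

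**Figure D1:**
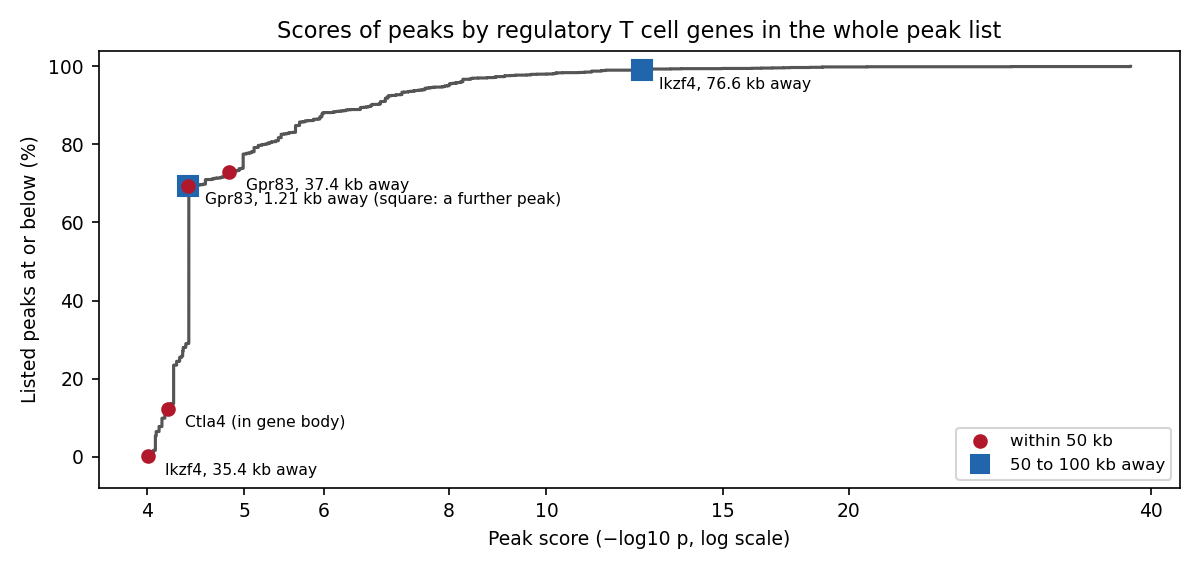
Cumulative share of the 2052 listed peaks (vertical axis, percent) by score (horizontal axis, −log10 p, log scale). Red circles mark the 4 peaks within 50 kb of a regulatory T cell gene, between 4.01 and 4.83, and blue squares the peaks 50 to 100 kb away, at 4.40 for Gpr83 and 12.45 for Ikzf4.

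Among the transcription factors, Foxp3 had no peak. Foxp3 directs the regulatory T cell programme. The nearest listed peak on chromosome X lay 6.9 Mb from the gene (14490320 to 14490375, score 4.25), and none was listed between the gene and the low-coordinate end of the chromosome. Its neighbours Ppp1r3f, Ccdc22, Cacna1f and Syp had none within 50 kb either. The whole chromosome held 15 listed peaks, and 1.24% of its 966 protein-coding genes had a peak by the rule. Of those genes, 39.5% lay at least as far from a peak as Foxp3, and their median distance was 5.18 Mb. The lack of a peak at Foxp3 was thus shared by almost all genes of the chromosome.

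Ikzf2, which encodes Helios, also had no peak, although it lies on an autosome and its body of 156 kb is the longest of the 10. The nearest peaks lay 4.56 Mb below it and 4.51 Mb above it, both with a score of 4.40. The upper one lay 3.49 kb from Cxcr1. The peak-free stretch of 9.23 Mb around Ikzf2 was among the longest, as 7 of 1999 autosomal stretches between neighbouring listed peaks, itself included, were at least as long (0.35%), and the median was 0.612 Mb. The peak numbers in the deposited names follow position on every chromosome and skip 100 numbers in this stretch, or 10.8 per Mb, against 13 per Mb over the autosomes. A skipped number may stand for a call that was not listed, but the scores and exact positions of such calls are unknown. The highest number in a name was 33876, in a list of 2052 peaks, so most numbers are absent from the list. Having no peak here therefore means having no listed peak.

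Ikzf4, which encodes Eos, had a peak 35.4 kb above its body (chromosome 10, 128705069 to 128705134, 66 bp, score 4.01). This peak lay inside the body of Pmel, a pigment cell gene, and 0.018 kb from the body of Cdk2, a cell cycle kinase. All 66 bases fell in the Cdk2 promoter window, at positions -83 to -18 from the start of Cdk2, and held no core. Rab5b was also nearer to the peak than Ikzf4, at 8.79 kb. The window of Ikzf4 touched 6 other protein-coding genes, of which Suox, Rab5b, Pmel and Cdk2 had a peak within 50 kb by the same rule. The stronger peak of the locus lay outside the window, 76.6 kb from Ikzf4 (128746270 to 128746490, 221 bp). Its score of 12.45 ranked 19 in the list. It lay between Dgka, which encodes a diacylglycerol kinase that dampens T cell receptor signals, at 1.19 kb, and Pym1 at 1.39 kb.

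**Figure D2:**
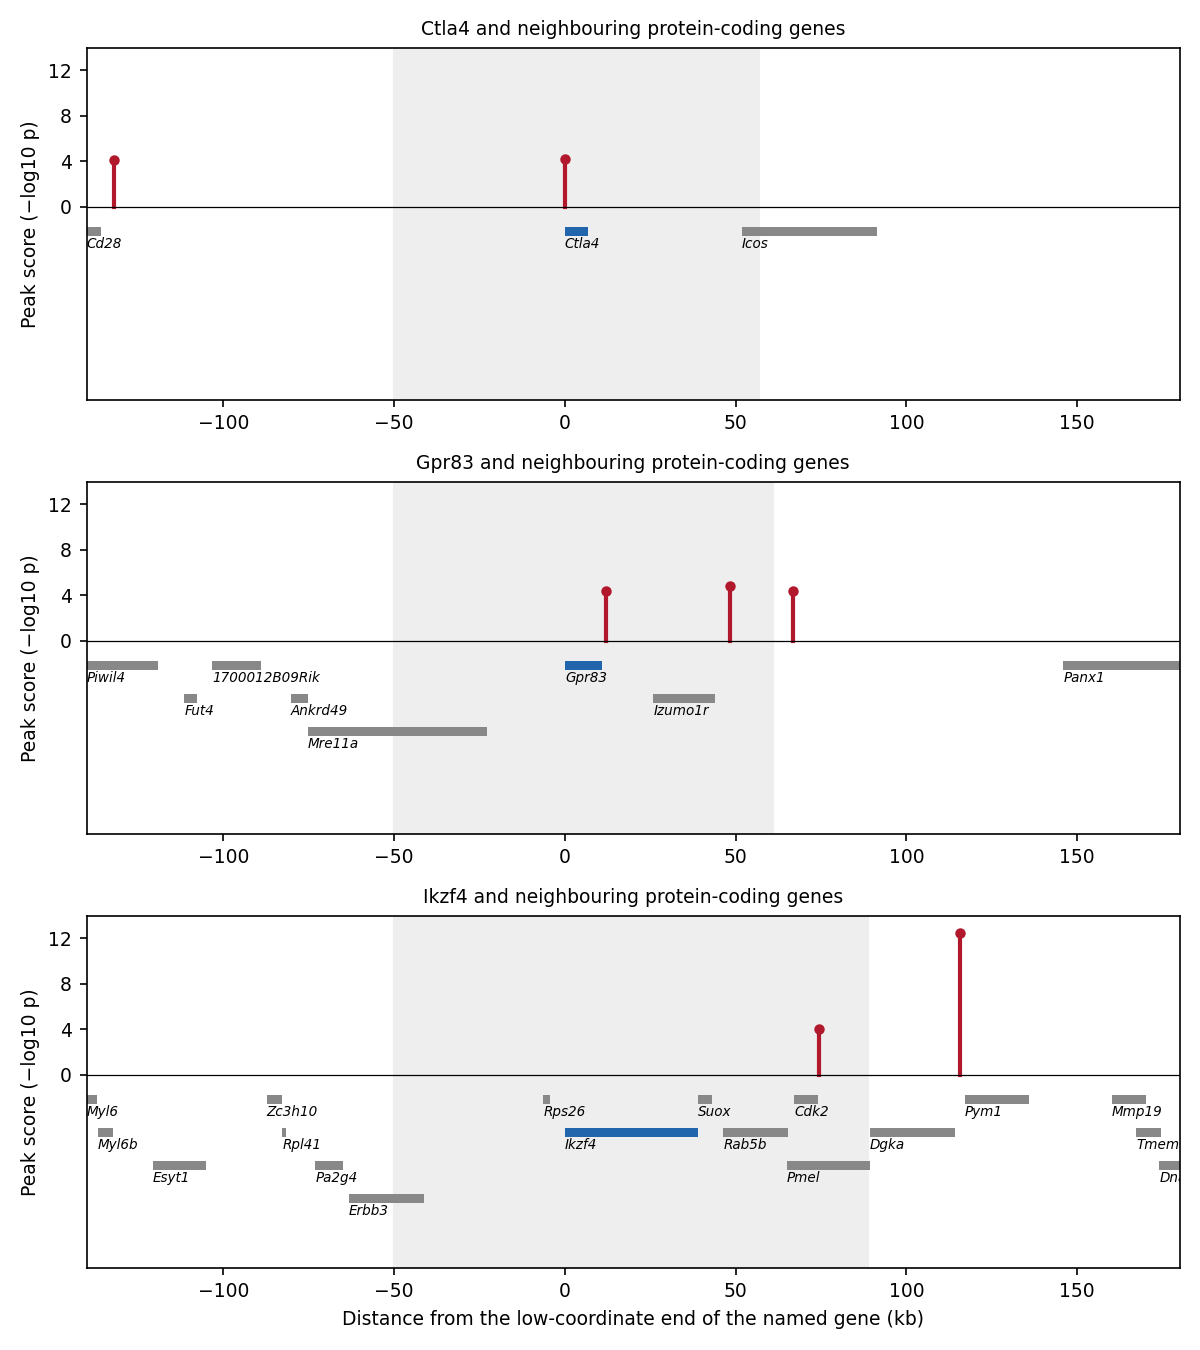
Peaks (red lines, height is the score as −log10 p) around Ctla4, Gpr83 and Ikzf4, by distance in kb from the low-coordinate end of each named gene. Boxes are bodies of protein-coding genes, blue for the named gene, and grey shading is the body with 50 kb on either side; the peak of score 12.45 near Dgka lies outside the shading of Ikzf4.

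Among the inhibitory receptors, the peak across the start of Ctla4 was the only one within 50 kb of that gene. Ctla4 lies in a cluster with Cd28, the main costimulatory receptor of T cells, and Icos, a related costimulatory receptor. Cd28 had a peak of its own 3.66 kb from its body and 131.8 kb below Ctla4 (60777015 to 60777208, score 4.08). Icos had none within 50 kb, and the nearest was the Ctla4 peak at 51.7 kb. The numbers in the peak names skip 6 in the 131.8 kb between the Cd28 and Ctla4 peaks. At the autosomal rate of 13 per Mb, a stretch of that length would hold fewer than 6. Whether such a count is unusual for so short a stretch was not tested. A peak inside or touching the gene body, as at Ctla4, was found at 4.51% of protein-coding genes.

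Tigit, a receptor that competes with CD226 for the poliovirus receptor, had no peak. The nearest lay 1.34 Mb above it, inside Cd200r3 (chromosome 16, 45007074 to 45007138, score 7.18), and the peak on its other side was 4.99 Mb away. Of protein-coding genes, 85.7% had a peak at least as near. Its body overlaps that of Zbtb20, which also had none within 50 kb. The peak-free stretch around it measured 6.37 Mb, and 1.85% of autosomal stretches were at least as long.

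The costimulatory receptors of the tumour necrosis factor family, Tnfrsf4 (OX40) and Tnfrsf18 (GITR), lie 9.71 kb from each other on chromosome 4, so their windows overlap and they are not independent members. Neither had a peak. The nearest, inside Nadk, was the same for both (155563687 to 155563823, score 7.69), at 450 kb from Tnfrsf4 and 462 kb from Tnfrsf18. Their windows also touched C1qtnf12, B3galt6, Sdf4 and Ttll10, and none of these had a peak within 50 kb. Of protein-coding genes, 59.6% had a peak at least as near as Tnfrsf4 and 60.4% as Tnfrsf18.

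Gpr83, a G protein-coupled receptor with high expression in mouse regulatory T cells, had the most peaks of the 10 genes. One lay 1.21 kb above its body (chromosome 9, 14871994 to 14872066, 73 bp, score 4.40). Because the gene is on the plus strand, that is beyond its 3′ end. The other lay 37.4 kb from it (14908152 to 14908270, 119 bp, score 4.83) and was nearer to Izumo1r, at 4.20 kb. A further peak stood just outside the window at 56 kb (14926744 to 14926810, score 4.40). Izumo1r encodes folate receptor 4, a surface protein of regulatory and anergic CD4 T cells, and all of these peaks lay within 50 kb of it, at 4.20, 13.7 and 22.8 kb. The 3 peaks carry consecutive numbers in the deposited list, with no number skipped between them. Of protein-coding genes, 5.40% had a peak as near as that of Gpr83.

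Nt5e encodes CD73, the enzyme that turns AMP into adenosine. It had no peak, and the nearest lay 1.31 Mb below it, next to Cyb5r4 (chromosome 9, 87021765 to 87021960, score 4.99). The next peak above it was 3.17 Mb away. In the stretch of 4.52 Mb between these peaks 65 peak numbers were skipped, or 14.4 per Mb, against 13 per Mb over the autosomes. Lrrc32 encodes GARP, which holds latent TGF-beta on the cell surface. It had no peak either, and the nearest was 585 kb above it, inside Uvrag (chromosome 7, 99087181 to 99087299, score 8.01). Of protein-coding genes, 85.1% had a peak at least as near as Nt5e and 67% as near as Lrrc32. The median distance from the 10 genes to their nearest peak was 524 kb, against 317 kb for all protein-coding genes. Of the 10, 3 lay nearer than that median.

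**Figure D3:**
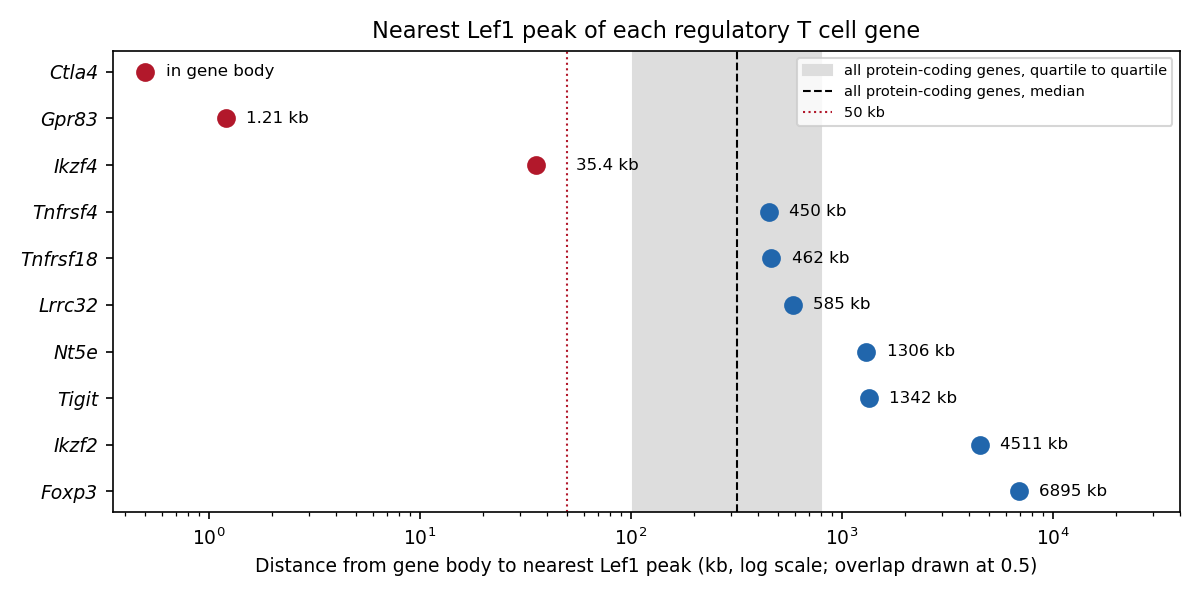
Distance from each gene body to its nearest Lef1 peak (horizontal axis, kb, log scale; the overlap at Ctla4 is drawn at 0.5). Red points lie within 50 kb and blue points beyond it; the grey band spans 102 to 796 kb, the quartiles of all protein-coding genes, and the dashed line is their median of 317 kb.

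Genes related to the members were grouped into 7 lists with 96 genes in all. They included partners, relatives, pathway genes, and effector and surface products of regulatory T cells. Of the 96 genes, 35 had a peak (36.5%, exact Clopper-Pearson 95% interval 26.9 to 46.9%), against 15.5% of all protein-coding genes. Their median distance to a peak was 115 kb, against 317 kb. Of the 35, 19 were the protein-coding gene nearest to a peak of their own, and the others shared a peak with a nearer neighbour. By that stricter rule no share of all protein-coding genes was computed, so the 19 cannot be read as many or few. The interval counts genes as independent, but some share a peak, such as Stat5a with Stat5b and Tnfrsf1b with Tnfrsf8. The background was not matched for body length or for expression in T cells. The same 15.5% stands beside the count of each single list below. The exact 95% intervals for relatives of Tnfrsf4 and Tnfrsf18, TGF-beta genes, the adenosine pathway, and effector and surface products include it. Those for Foxp3 partners (18.8 to 59.4%), the interleukin-2 pathway (23.4 to 83.3%) and relatives of Ctla4 and Tigit (17.7 to 71.1%) lie above it. The lists were put together with earlier results of these data known, so these shares are a description and no excess was tested.

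Partners and regulators of Foxp3 had a peak at 9 of 24 genes, 8 of them inside the body. Among all protein-coding genes 4.51% had a peak inside or touching the body, but body lengths were not matched. Satb1, a chromatin organiser, had 4 peaks with a highest score of 16.36, rank 10 in the list, at 46 kb from its body. Ikzf1, which encodes Ikaros, had 1 of 5.12. Prdm1, which encodes Blimp-1, had 2 (4.99 and 4.14). Runx1 had 2 neighbouring peaks (4.09 and 4.08), and Cbfb, whose product pairs with Runx proteins on DNA, had 1 of 4.40 in its promoter window. Rel, an NF-kappaB subunit, and Nfatc1 each had 1 of 4.40, and Bach2, a repressor, 1 of 4.04. The ninth, Stub1, shared its peak with Metrn, 0.044 kb from it. Gata3, Foxo1 and Nr4a1 had none.

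The interleukin-2 pathway had a peak at 6 of 11 genes, but only Jak1 and Stat5b were nearest to it. Jak1, a kinase of the shared receptor chains, had 2 peaks inside its body (5.16 and 4.99). Stat5b had 1 inside its body (4.94), which also lay 35.2 kb from Stat5a. The peaks of Il2rb (5.06), Jak3 (4.23) and Cish (4.35) lay inside the bodies of C1qtnf6, Unc13a and Hemk1. Il2ra, which encodes CD25, had none, and its nearest peak was 438 kb away. Il2 had none within 50 kb, with the nearest at 79.3 kb.

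Relatives of Ctla4 and Tigit and their ligands had a peak at 6 of 14 genes. Pdcd1lg2, which encodes the PD-1 ligand PD-L2, had 2 inside its body (7.08 and 6.84). Pdcd1, which encodes PD-1, had 1 at 2.71 kb (5.41), and Nectin2, a ligand of TIGIT, had 1 inside its body (4.25). The peaks of Havcr2 (8.01) and Cd96 (4.58) lay at Fam71b and Plcxd2, and that of Cd28 is given above. Cd226, Cd80, Cd86 and Lag3 had none. Relatives of Tnfrsf4 and Tnfrsf18 had a peak at 4 of 12 genes. Tnfrsf1b, which encodes TNF receptor 2, had 1 inside its body (5.75), which Tnfrsf8 shared at 30.9 kb beside 1 of its own (5.63). Those of Cd27 (7.57) and Traf2 (8.87) lay at Vamp1 and Ajm1. The ligand genes Tnfsf4 and Tnfsf18 had none.

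Genes of TGF-beta activation and signalling, the pathway of Lrrc32, had a peak at 4 of 12 genes. Smad3, a signal transducer of TGF-beta receptors, had 1 inside its body (7.69) and Smad7, an inhibitor of the pathway, had 2 at 45 and 44.8 kb (7.18 and 4.35). Ski, a corepressor of Smad proteins, had 2 (6.95 and 5.86) and Furin 1 (4.09), all nearer to other genes, as were those of Smad7. Tgfb1, Tgfbr1 and Tgfbr2 had none. The adenosine pathway of Nt5e had a peak at 1 of 7 genes, Adk (4.40), and that peak lay inside Ap3m1. Entpd1, which encodes CD39, had none. Effector and surface products of regulatory T cells had a peak at 5 of 16 genes. Izumo1r had the 3 peaks named above, of which Gpr83 shared 2. Ccr4 (11.45) and Fgl2 (9.08 and 5.68) had peaks inside other genes, Klrg1 (4.17) had one next to M6pr, and Il12a (6.95) had one at 47.9 kb. Il10, Ebi3, Nrp1 and Itgae had none. Marker genes of CD8 and NK cells had a peak at 0 of 10 genes. Its exact Clopper-Pearson 95% interval reaches 30.8% and includes the 15.5% of all protein-coding genes, and a peak or its lack says nothing of whether such cells were present.

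**Figure D4:**
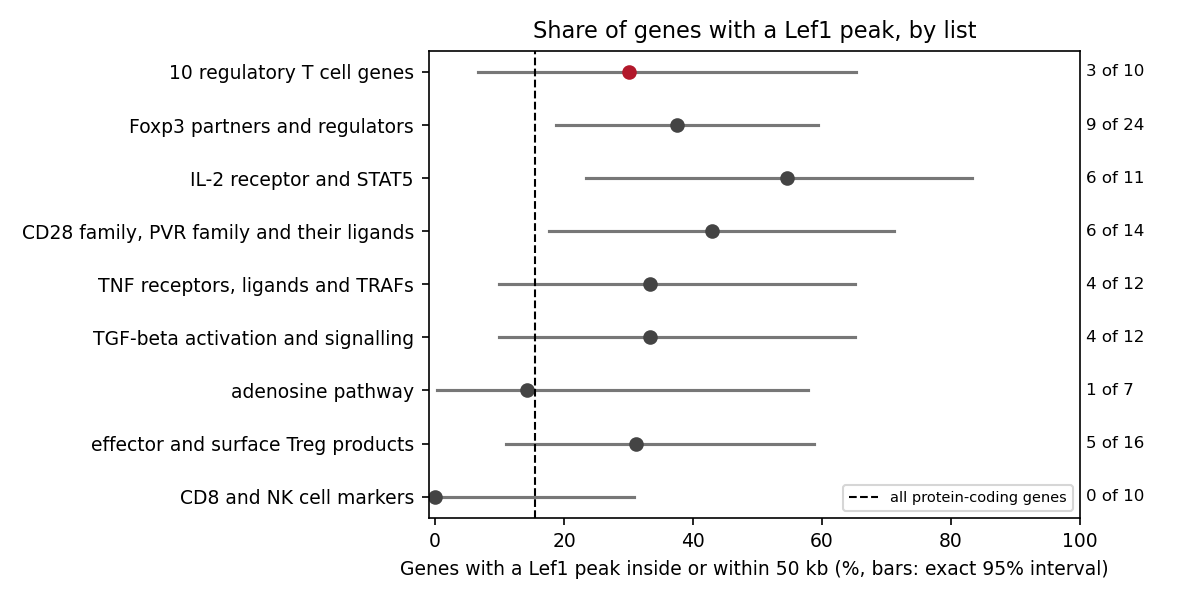
Percent of genes in each list with a Lef1 peak inside or within 50 kb (points; bars are exact Clopper-Pearson 95% intervals), with the counts at the right. The dashed line is the 15.5% of all protein-coding genes; the interval of the 10 regulatory T cell genes, 6.67 to 65.2%, spans it.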

How the data were processed

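The deposited file holds 1 row per peak with a position and a score, the −log10 of the p-value per the file headers. Per the submitters' processing notes, FastQC, Bowtie2 2.3.4.1 and MACS2 2.1.1 were used with the mm10 build; for parameters and read depths, the entry is "not given in the sources used here", so the depth is unknown. Per the labels, the Lef1-deficient library was the control. Starts were raised by 1 base, on the assumption of the BED convention, which could shift a start by 1 base. Genes came from a RefSeq table of GRCm38.p6, the assembly mm10 denotes, with 21887 protein-coding genes on assembled chromosomes, and promoter sequences and strands from a RefSeq promoter table; all 116 listed symbols matched. A further planned list of markers is not reported here. Exons were not used here. Windows were counted with Python 3.11.15, pandas 2.3.3 and scipy 1.17.1, and the counting was tested on simulated peaks. The text names all 10 members, the genes nearest to their peaks and the related genes that had a peak. Members and lists were chosen with earlier results of these data known. Alternatives were windows of 10, 25 and 100 kb, peak centres, higher scores, merged peaks, autosomal members, the nearest gene only, another background and fewer cores.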

Additional observations from a re-analysis of the deposited data

How the results depend on the processing

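Within 10 or 25 kb, and with each peak given only to its nearest protein-coding gene, 2 members (Ctla4 and Gpr83) had 2 peaks in place of 4, and within 100 kb 3 members had 6. Peaks above the median score left 1 member, Gpr83, with 1 peak (0.807 per Mb), or 10% of members against 5.84% of protein-coding genes. A score of at least 5 left 0 members, 0 peaks and 0 per Mb, because all 4 peaks score below it. At that score 4.42% of protein-coding genes had a peak. No density over all protein-coding genes was computed for these higher scores. Peak centres, merging within 1 kb and leaving out Foxp3 kept 3 members and 4 peaks. The share of members less that of the background, 14.5 percentage points, lay between -4.42 and 17.8 over the alternatives, except that it was not computed with each peak given only to its nearest gene. Of the 96 related genes 17 had a peak within 10 kb (background 7.33%) and 47 within 100 kb (24.6%). A peak above the median score was found at 22 of them (background 5.84%). With CTTTGAA and CTTTGAT alone, 1 member promoter, that of Ctla4, held a core. No paired analysis was possible because neither group has a second library and peaks are listed for the wild type alone, and no replicate could be left out. The depth is unknown, so that weaker binding at genes without a listed peak cannot be told from none.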
